A study of Mus musculus with 10 samples.

Results

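The genes described here are the secreted and membrane-bound proteases that remodel extracellular matrix, with their relatives and inhibitors: the ADAMTS proteases, the ADAMTS-like proteins, the matrix metalloproteinases (MMPs) and the tissue inhibitors of metalloproteinases (TIMPs). Members were taken by symbol among protein-coding genes of the deposited table. That gave 47 of 28871 genes: 19 ADAMTS, 5 ADAMTS-like, 19 MMP and 4 TIMP genes. The study measured total RNA of the whole hippocampus of wild type male C57BL/6J mice, 2 months old. One group (5 samples, numbered 3, 6, 9, 12 and 15) had Visudyne, which carries the photosensitizer verteporfin, injected into the cisterna magna and activated with red light of 689 nm through the skull, a procedure meant to ablate meningeal lymphatic vessels. The other group (5 samples, numbered 1, 4, 7, 10 and 13) had vehicle in place of Visudyne and the same light step. Both groups had the procedure again 2 weeks later, and tissue was taken 2 weeks after the last one. Whether 1 sample stands for 1 mouse is not stated, so the tests measure the spread between these samples.

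ADAMTS proteases are secreted zinc enzymes that are anchored in the matrix by thrombospondin repeats. Some cut the hyaluronan-binding proteoglycans of brain matrix, and others trim the ends of fibrillar procollagens. The ADAMTS-like proteins have the thrombospondin repeats but lack the protease domain, and several associate with fibrillin microfibrils. MMPs cut collagens, laminins and many cell surface proteins, either after secretion or on the membrane, and TIMPs bind to their active sites. In the brain these enzymes are known for roles in perineuronal nets, in the basement membranes of vessels and in synaptic plasticity.

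Values are CPM (a gene's counts relative to its library total) after TMM scaling of the library totals, and fold changes are log2 values of Visudyne minus vehicle from edgeR's quasi-likelihood fit to all 19093 genes that passed its filter on low counts. Of the 47 members 41 passed the filter: 18 ADAMTS, 5 ADAMTS-like, 14 MMP and 4 TIMP genes. Library totals ranged from 51165271 to 68895223 estimated counts. Markers of hippocampal neurons were abundant in every library (9 of 9 tested, summed level 3589 to 4410 CPM). Vehicle 7 stood apart in choroid plexus markers (summed level 231.5 CPM, against 32.1 to 63.4 CPM in the other 9 libraries). The summed markers of meningeal and perivascular fibroblasts did not overlap between the groups. Of 20 listed, 19 were tested, 18 were positive (51.1% of all genes were) and 1, Col1a1, passed the test (0.021% of all genes did). In 5 all Visudyne samples were above all vehicle samples (0.319% of all genes): Col1a1, Col1a2, Col3a1, Mgp and Slc47a1. In 7, among them Pdgfra, Dcn and Lum, the difference was smaller than its SE (14886 of all 19093 genes). Pdgfra, the most abundant of the 20, is also listed for the oligodendrocyte lineage. The summed level of the 20 markers was 144.0 to 262.4 CPM (vehicle) and 263.1 to 308.5 CPM (Visudyne), and none was at 0 in all libraries. In bulk tissue, a change in the number of cells of a type and a change in RNA per cell cannot be told apart.

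Promoters are shown for 3 members chosen for their positive differences, the 2 whose groups did not overlap and the most different inhibitor, as the 250 bases before the transcription start of each (RefSeq, GRCm38.p6). Capitals mark matches to a GC box (GGGCGG), a TEAD site (GGAATG), an AP-1 site (TGANTCA) or a TATA box (TATAAA) on either strand. The windows are chr7:82335444-82335693, plus strand, for Adamtsl3; chr11:50601835-50602084, plus strand, for Adamts2; and chrX:20869916-20870165, plus strand, for Timp1.
Adamtsl3: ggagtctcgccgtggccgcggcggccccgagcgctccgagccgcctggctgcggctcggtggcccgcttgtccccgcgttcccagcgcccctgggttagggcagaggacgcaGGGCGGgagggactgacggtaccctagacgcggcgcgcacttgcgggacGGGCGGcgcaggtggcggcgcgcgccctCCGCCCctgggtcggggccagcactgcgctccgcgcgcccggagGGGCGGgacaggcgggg
Adamts2: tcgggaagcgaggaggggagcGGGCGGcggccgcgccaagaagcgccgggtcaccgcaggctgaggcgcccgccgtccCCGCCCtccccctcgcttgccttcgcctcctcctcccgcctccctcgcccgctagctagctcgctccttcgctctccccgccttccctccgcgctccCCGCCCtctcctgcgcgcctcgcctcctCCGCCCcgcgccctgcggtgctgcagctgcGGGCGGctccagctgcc
Timp1: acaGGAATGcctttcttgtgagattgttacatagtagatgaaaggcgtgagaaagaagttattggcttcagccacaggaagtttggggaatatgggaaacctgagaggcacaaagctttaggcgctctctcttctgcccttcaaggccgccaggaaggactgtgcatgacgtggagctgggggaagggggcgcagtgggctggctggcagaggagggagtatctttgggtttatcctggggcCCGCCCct
The Adamtsl3 and Adamts2 windows were GC-rich (80.0% and 78.0% G or C) with 4 and 5 GC boxes, and had no match to the other motifs. The median was 63.2% G or C over the members with a sequence and 52.4% over all promoter windows of this length. Adamts3 (78.0%, 1 GC box) and Mmp24 (79.2%, 3 GC boxes), whose differences were smaller than their SE, were similarly GC-rich. The Timp1 window had 54.4% G or C, with 1 GC box 8 bases before the start and 1 TEAD match. Of all 32536 promoter windows of this length in the RefSeq table, 33.0% held a GC box, 12.6% a TEAD match, 6.73% an AP-1 match and 12.3% a TATA box. Of the 32 members with a sequence there (34 windows, since Mmp12 and Mmp23 each have 2), 20, 2, 4 and 6 did in at least 1 window. The 4 with AP-1 matches (Mmp3, Mmp12, Mmp13 and Mmp20) lie in the MMP cluster of chromosome 9, and Mmp12 has the match in 1 of its 2 windows. No match means only that these letters are not in the window.

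No member passed the test between Visudyne and vehicle: 0 of 41 were called higher and 0 lower at an edgeR adjusted p under 0.05 over all genes, against 0.021% and 0% of all genes tested. At an unadjusted p under 0.05, 5 members were higher (Adamtsl3, Adamts2, Timp1, Mmp2 and Adamts13; 1.14% of all genes were) and 1 was lower (Adamts1; 0.56% of all genes were). DESeq2 called 1 member higher, Adamtsl3 (it called 0.0943% of all genes higher), and limma voom called 0 (0.021% of all genes). The groups were fully separated in 2 members, Adamtsl3 and Adamts2, both with Visudyne higher (0.319% of all genes were), and in 0 with Visudyne lower (0.115% of all genes were). The members' median log2 fold change was 0.07 against 0.0022 over all genes, and 33 of 41 were positive (80.5%, against 51.1% of all genes). In 28 of the 41 the difference was smaller than its SE (14886 of all 19093 genes). The count of positive members was 23 of 29 with the filter of 1 CPM and 36 of 47 with no filter. Of 41 members it was 28 with voom and sample quality weights and 29 with sample number as covariate. With 1 sample left out it was 26 (without Visudyne 15) to 35 (without Visudyne 12). It was 24 of 41 with vehicle 1 and Visudyne 15 left out. The median log2 fold change of all genes was -0.0052 without Visudyne 15 and 0.0095 without Visudyne 12. It was 0.0033 without vehicle 1 and Visudyne 15. The share of all genes that were positive was not counted in the alternatives.

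**Figure D1:**
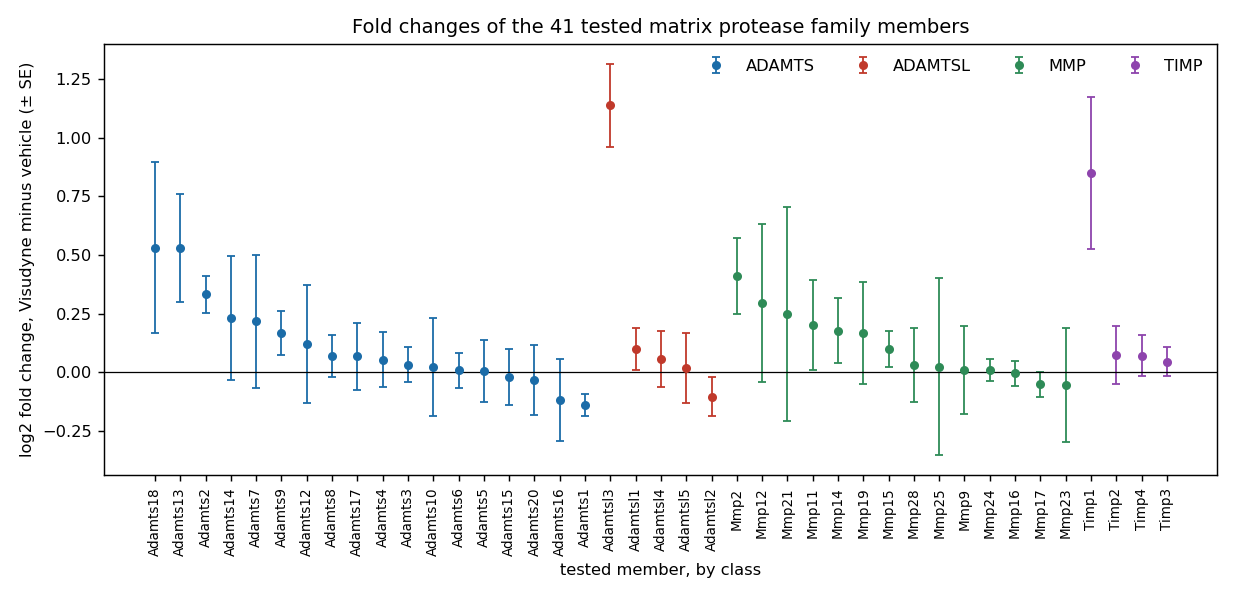
Log2 fold change (Visudyne minus vehicle, y axis) with its SE for each of the 41 tested members, grouped by class along the x axis. Adamtsl3 stands highest at 1.14, Adamts1 lowest at -0.14, and most other members lie within their SE of 0.

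Among the ADAMTS-like proteins, Adamtsl3 had the largest difference of the whole set. Adamtsl3 (ENSMUSG00000070469, chromosome 7, 82335694 to 82614450, plus strand, mm10) encodes a secreted matrix glycoprotein with thrombospondin repeats. It measured 3.31, 3.11, 2.18, 1.80 and 1.85 CPM in vehicle 1, 4, 7, 10 and 13, and 6.29, 5.09, 5.06, 5.93 and 4.64 CPM in Visudyne 3, 6, 9, 12 and 15. The groups did not overlap, and the lowest Visudyne sample was above the highest vehicle sample. The level was 2.20 times the vehicle level in the fit (log2 fold change 1.14, SE 0.18, edgeR adjusted p = 0.103). It rests on 91 to 365 counts per library. The adjusted p ranged from 1.9e-06 to 0.435 over the alternatives, and was under 0.05 with DESeq2 (1.9e-06), with voom and sample quality weights (0.011), with sample number as covariate (0.0044) and without vehicle 1 (0.039). The share of all genes called higher was 0.0943%, 0.0681%, 0.0995% and 0.0207% in those 4 alternatives.

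The fibroblast marker sums can be set beside Adamtsl3 sample by sample. Vehicle 1 and vehicle 4, the vehicle samples with the highest Adamtsl3, also had the highest fibroblast marker sums of that group, 262.4 and 241.2 CPM, and vehicle 7, 10 and 13 had 203.9, 229.6 and 144.0 CPM. The order differed among those 3, where vehicle 10 had the lowest Adamtsl3 and the highest sum. In Visudyne 3, 6, 9, 12 and 15 the sums were 303.5, 308.5, 265.9, 274.0 and 263.1 CPM. Vehicle 1 and Visudyne 15 had nearly equal sums, 262.4 and 263.1 CPM, and Adamtsl3 levels of 3.31 and 4.64 CPM. The part of the fibroblast markers in the Adamtsl3 difference was not tested.

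**Figure D2:**
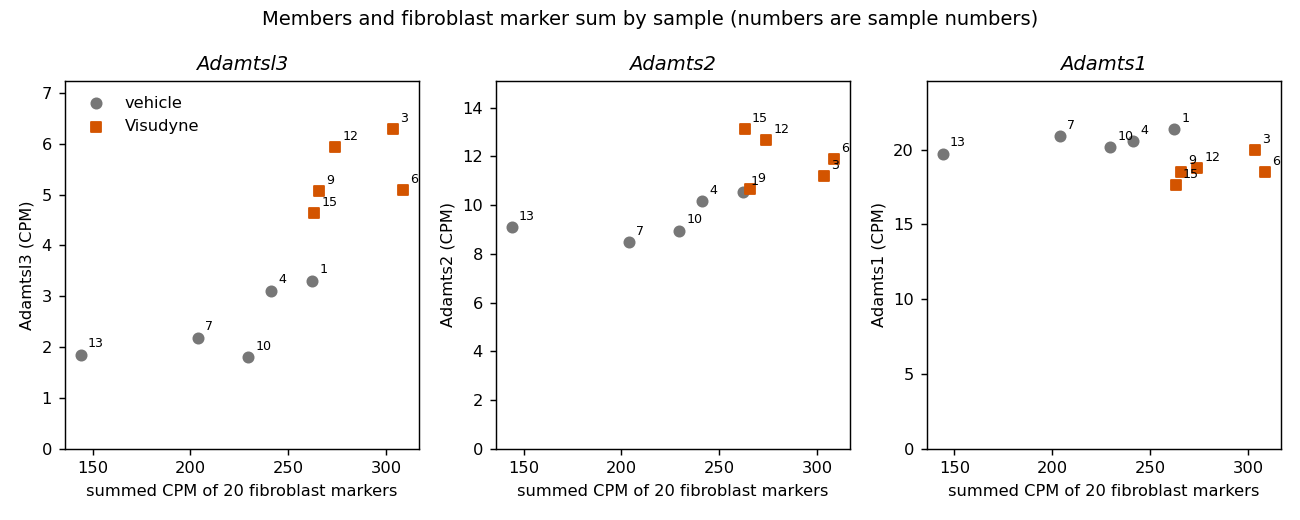
Level of Adamtsl3, Adamts2 and Adamts1 (CPM, y axis) against the summed level of 20 fibroblast markers (CPM, x axis) in each of the 5 vehicle (circles) and 5 Visudyne samples (squares), labelled by sample number. Adamtsl3 and Adamts2 are higher in the Visudyne samples, where the marker sum is also higher (263.1 to 308.5 CPM). Adamts1 is lower in 4 of the 5 Visudyne samples than in any vehicle sample.

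The other 4 ADAMTS-like genes differed little between the groups. Adamtsl2, which encodes a partner of fibrillin microfibrils, measured 4.47, 4.42, 4.31, 4.65 and 4.34 CPM in vehicle 1, 4, 7, 10 and 13, and 4.47, 4.23, 4.42, 3.62 and 3.90 CPM in Visudyne 3, 6, 9, 12 and 15 (log2 fold change -0.10, SE 0.08). The vehicle samples were close together and Visudyne 6, 12 and 15 lay below them. Adamtsl1, a secreted protein of the same family, measured 9.90, 10.3, 9.36, 7.99 and 9.17 CPM with vehicle and 9.36, 11.5, 8.98, 10.9 and 9.31 CPM with Visudyne, in the same order of samples (0.10, SE 0.09). Adamtsl4, which is linked to the fibrillin microfibrils of the eye, measured 6.79, 6.70, 5.38, 4.74 and 5.62 CPM (vehicle) and 5.82, 6.498, 6.85, 4.85 and 6.40 CPM (Visudyne) (0.06, SE 0.12). In both genes the groups overlapped over most of their range. Adamtsl5 had a log2 fold change of 0.02 (SE 0.15). The summed level of the 5 genes was 24.6 ± 2.54 CPM with vehicle and 28.1 ± 1.41 CPM with Visudyne (SD, n = 5 each), of which Adamtsl3 made up 2.45 ± 0.711 and 5.4015 ± 0.683 CPM.

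Among the procollagen N-propeptidases, the ADAMTS enzymes that trim the amino-terminal ends of fibrillar procollagens, Adamts2 had the clearest separation. Adamts2 (ENSMUSG00000036545, chromosome 11, 50602084 to 50807573, plus strand) measured 10.5, 10.2, 8.48, 8.95 and 9.11 CPM in vehicle 1, 4, 7, 10 and 13, and 11.2, 11.9, 10.7, 12.7 and 13.1 CPM in Visudyne 3, 6, 9, 12 and 15. The groups did not overlap, but Visudyne 9 was only just above vehicle 1. The log2 fold change was 0.33 (SE 0.08, edgeR adjusted p = 0.9999), and the lowest adjusted p of any alternative was 0.122, with DESeq2. Vehicle 1 and vehicle 4 were again the highest vehicle samples. Of the other propeptidases, Adamts3 measured 14.5 ± 1.40 CPM (vehicle) and 14.8 ± 1.04 CPM (Visudyne) (0.03, SE 0.08), and Adamts14 0.975 ± 0.284 and 1.14 ± 0.362 CPM (0.23, SE 0.26). Neither difference exceeded its SE. Of their substrates described here, Col1a1 was the 1 gene that passed (8.42 ± 2.30 and 19.04 ± 2.47 CPM, edgeR adjusted p = 0.0485). Col1a2 (0.78, SE 0.20) and Col3a1 (1.36, SE 0.26) were also higher in the Visudyne mean but did not pass. The Col1a1 call was lost in 11 of 19 alternatives, among them 8 of the 10 that leave out 1 sample (all but vehicle 1 and vehicle 4), where edgeR's adjusted p reached 0.279 (without vehicle 7), and its log2 fold change stayed between 1.08 and 1.31.

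**Figure D3:**
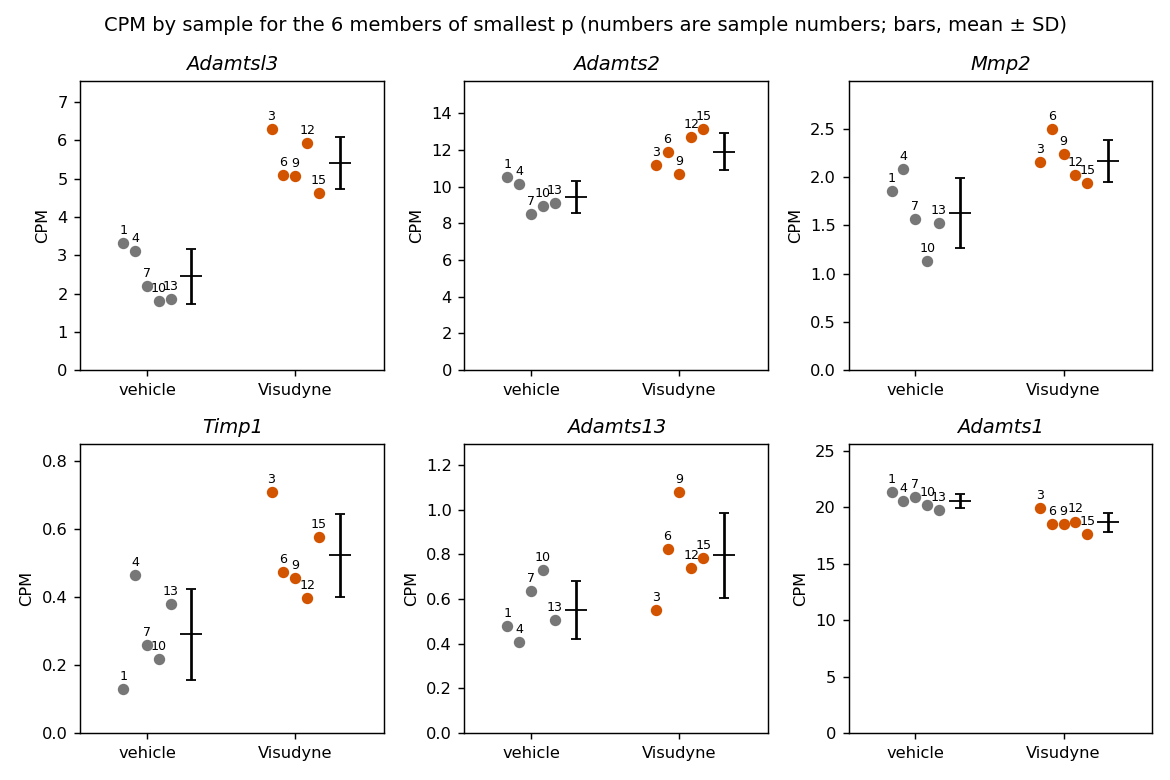
Level (CPM, y axis from 0) of the 6 members of smallest p in each vehicle and Visudyne sample, numbered by sample, with mean ± SD (n = 5) as bars. The groups separate in Adamtsl3 and Adamts2, and overlap in Mmp2, Timp1, Adamts13 and Adamts1.

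The aggrecanases, which cut aggrecan, brevican and versican of the brain's hyaluronan matrix, showed no member past the test. Adamts1, a secreted aggrecanase that is also induced in injured vessels, is the most abundant ADAMTS gene per exon length and had the smallest p of the members with a negative difference. It measured 21.4, 20.6, 20.9, 20.2 and 19.7 CPM in vehicle 1, 4, 7, 10 and 13, and 19.99, 18.5, 18.5, 18.7 and 17.6 CPM in Visudyne 3, 6, 9, 12 and 15. Only Visudyne 3 lay within the vehicle range, and the spread within each group was small (SD 0.635 and 0.851 CPM). The log2 fold change was -0.14 (SE 0.05, edgeR adjusted p = 0.9999), and the lowest adjusted p of any alternative was 0.946. Adamts4, a main brain aggrecanase, measured 15.7, 16.1, 12.6, 10.02 and 13.1 CPM in vehicle 1, 4, 7, 10 and 13, and 14.8, 13.9, 15.1, 14.4 and 11.9 CPM in Visudyne 3, 6, 9, 12 and 15 (0.054, SE 0.12). All Visudyne samples lay inside the vehicle range. Adamts5, the gene next to Adamts1 on chromosome 16, measured 1.48 ± 0.107 and 1.48 ± 0.193 CPM (0.0052, SE 0.13), Adamts15 4.49 ± 0.648 and 4.42 ± 0.548 CPM (-0.02, SE 0.12) and Adamts9 11.4 ± 1.37 and 12.8 ± 1.34 CPM (0.17, SE 0.09). Adamts8 and Adamts20, which are also related to the aggrecanases, had 0.07 (SE 0.09) and -0.03 (SE 0.15). The 10 tested of 11 genes of the hyaluronan matrix include the substrates of these enzymes. Of all genes tested 51.1% were positive and 0.021% were called higher. Of these 10 genes 6 were positive, their median was 0.03 (log2) and 0 passed. Those of smallest p were aggrecan (Acan, 7.36 ± 0.545 and 6.59 ± 0.850 CPM, -0.16, SE 0.09) and tenascin-R (Tnr, 29.3 ± 4.50 and 31.4 ± 2.28 CPM, 0.10, SE 0.10).

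Adamts13, the plasma protease that cuts von Willebrand factor, measured 0.479, 0.406, 0.636, 0.731 and 0.507 CPM in vehicle 1, 4, 7, 10 and 13, and 0.553, 0.823, 1.08, 0.739 and 0.784 CPM in Visudyne 3, 6, 9, 12 and 15. Visudyne 3 lay within the vehicle range and the other 4 Visudyne samples above it. The log2 fold change was 0.53 (SE 0.23, edgeR adjusted p = 0.9999) on 21 to 64 counts per library. Adamts10 and Adamts17, 2 enzymes linked to fibrillin microfibrils, had 12.4 ± 2.72 and 12.6 ± 3.71 CPM (0.023, SE 0.21), and 11.3 ± 2.05 and 11.9 ± 2.30 CPM (0.07, SE 0.14). Among the remaining ADAMTS genes, Adamts18 measured 0.439 ± 0.246 and 0.630 ± 0.173 CPM (0.53, SE 0.36) on as few as 12 counts. Adamts6, Adamts7, Adamts12 and Adamts16 had log2 fold changes of 0.0082, 0.22, 0.12 and -0.12, each smaller than its SE. Adamts19 had 3 to 10 counts per library and was not tested.

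Of the MMPs, Mmp2 (gelatinase A, chromosome 8, 92827291 to 92853420, plus strand), a secreted enzyme of fibroblasts that cuts basement membrane collagen, had the smallest p. It measured 1.85, 2.09, 1.57, 1.13 and 1.52 CPM in vehicle 1, 4, 7, 10 and 13, and 2.16, 2.50, 2.24, 2.02 and 1.93 CPM in Visudyne 3, 6, 9, 12 and 15. Vehicle 4 overlapped the Visudyne range, below which the other 4 vehicle samples lay. The log2 fold change was 0.41 (SE 0.16, edgeR adjusted p = 0.9999). The other gelatinase, Mmp9, measured 0.961 ± 0.213 CPM with vehicle and 0.967 ± 0.119 CPM with Visudyne (0.0090, SE 0.19), with 34 to 69 counts per library.

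Mmp14, the membrane-bound enzyme that activates the Mmp2 proenzyme on the cell surface together with Timp2, measured 8.74, 6.99, 5.42, 5.32 and 5.89 CPM in vehicle 1, 4, 7, 10 and 13, and 8.02, 7.56, 6.40, 8.31 and 6.38 CPM in Visudyne 3, 6, 9, 12 and 15 (0.18, SE 0.14). Vehicle 1 was the highest of all samples, so that the groups overlapped. Mmp15, a related membrane enzyme, measured 14.2, 12.5, 12.3, 12.6 and 10.99 CPM (vehicle) and 13.3, 13.8, 13.1, 14.96 and 12.04 CPM (Visudyne), in the same order (0.10, SE 0.08). Here too vehicle 1 lay among the highest samples. Neither Mmp14 nor Mmp15 passed.

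Most MMP transcripts came from membrane-anchored enzymes. Mmp17, which is held on the membrane by a lipid anchor, made up 58.0% of the summed CPM of all MMP genes, and Mmp16 another 19.4%. Mmp17 measured 192, 159.6, 169.6, 184 and 176 CPM in vehicle 1, 4, 7, 10 and 13, and 175, 167, 172, 162 and 174 CPM in Visudyne 3, 6, 9, 12 and 15 (-0.05, SE 0.05). All Visudyne samples lay within the vehicle range, and vehicle 1 was highest and vehicle 4 lowest. Mmp24, a membrane enzyme of neurons, measured 38.1, 34.7, 34.5, 35.3 and 38.3 CPM with vehicle and 36.8, 35.8, 35.4, 38.2 and 35.7 CPM with Visudyne, in the same order (0.0080, SE 0.047). Its highest sample was only 1.11 times its lowest. Mmp16 measured 58.1 ± 4.37 and 57.9 ± 2.13 CPM (-0.0047, SE 0.06). The summed level of the 19 MMP genes was 299.97 ± 13.1 CPM (vehicle) and 297 ± 5.99 CPM (Visudyne).

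The remaining MMPs were low. Mmp11, a secreted enzyme of stromal cells, measured 0.842 ± 0.145 and 0.966 ± 0.193 CPM (0.20, SE 0.19), and Mmp28, a secreted enzyme also named epilysin, 1.86 ± 0.278 and 1.90 ± 0.358 CPM (0.03, SE 0.16). Mmp19, Mmp21, Mmp23 and Mmp25 had log2 fold changes of 0.17, 0.25, -0.055 and 0.025, each smaller than its SE. The MMP cluster of chromosome 9 (7272514 to 7699585, mm10) holds 9 protein-coding MMP genes in the annotation, of which 6 have a row here and 1, Mmp12, was tested. Mmp12 (macrophage elastase) measured 3.43 ± 1.34 and 4.21 ± 1.84 CPM (0.30, SE 0.34). Its neighbours Mmp13, Mmp8, Mmp20, Mmp27 and Mmp3 (stromelysin 1) totalled 21, 11, 10, 5 and 3 counts over all 10 libraries. For those 5 genes a difference between groups was not detectable at this depth.

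The inhibitors were led by Timp2, the TIMP that takes part in Mmp2 activation, which made up 60.4% of the summed TIMP level. Timp2 measured 166, 129.95, 144, 169 and 106 CPM in vehicle 1, 4, 7, 10 and 13, and 149, 163, 129, 177 and 136 CPM in Visudyne 3, 6, 9, 12 and 15 (log2 fold change 0.07, SE 0.12). The groups overlapped, with vehicle 13 lowest. Timp3, which is bound to matrix and inhibits ADAMTS aggrecanases as well as MMPs, measured 77.4, 72.1, 71.2, 71.4 and 61.4 CPM with vehicle and 75.5, 66.9, 72.5, 75.9 and 74.1 CPM with Visudyne, in the same order (0.05, SE 0.06). Timp4 measured 22.4, 22.3, 24.0, 22.3 and 25.9 CPM (vehicle) and 22.6, 24.3, 24.2, 21.4 and 30.3 CPM (Visudyne) (0.07, SE 0.09). Both overlapped between the groups, and the highest Timp4 value was that of Visudyne 15.

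Timp1, the inducible member of the family, had the largest difference among the inhibitors but did not pass. It measured 0.128, 0.464, 0.258, 0.217 and 0.380 CPM in vehicle 1, 4, 7, 10 and 13, and 0.708, 0.474, 0.456, 0.397 and 0.575 CPM in Visudyne 3, 6, 9, 12 and 15. Vehicle 4 overlapped the Visudyne range, below which the other 4 vehicle samples lay. The log2 fold change was 0.85 (SE 0.32, edgeR adjusted p = 0.9999) on 8 to 41 counts per library, and ranged from 0.61 to 1.08 over the alternatives. Timp1, Timp3 and Timp4 each lie within a synapsin gene on the opposite strand (Syn1, Syn3 and Syn2). The library kit keeps strand, but whether the counting used it is not given in the sources used here, so whether synapsin reads enter their counts cannot be told apart. Other members overlap annotated genes too. On the same strand, for example, Adamtsl3 overlaps Gm44919, Adamtsl1 overlaps Sh3gl2 and Timp2 overlaps Cep295nl. The part of such genes in the members' counts was not tested.

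**Figure D4:**
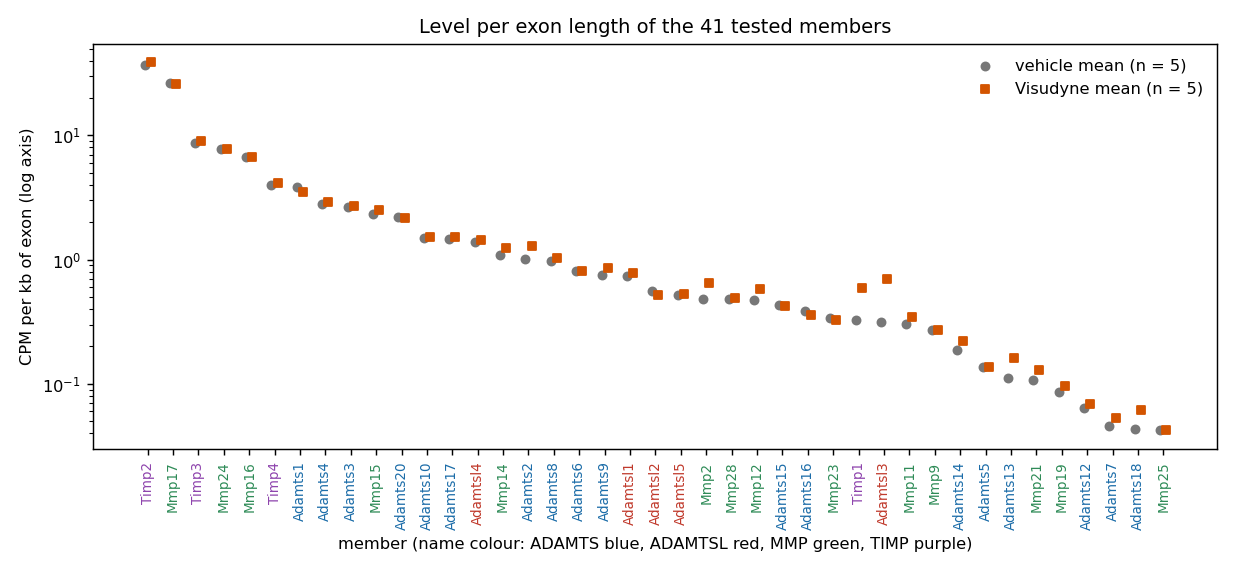
Mean level of the 41 tested members per kb of merged exon length (CPM per kb, log axis) in vehicle (circles) and Visudyne samples (squares), in order of the vehicle level. Timp2 and Mmp17 stand at the top (37.7 and 26.2 CPM per kb over all samples) and Mmp25 at the bottom (0.0425).

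Per kb of exon the members covered a wide range of levels. Over all 10 samples Timp2 (37.7 CPM per kb) and Mmp17 (26.2) were followed by Timp3 (8.82), Mmp24 (7.75), Mmp16 (6.69), Timp4 (4.07) and Adamts1 (3.6996). Adamtsl3 stood at 0.507 CPM per kb, near the median of the 41 tested members (0.564), with 0.316 ± 0.0918 CPM per kb in vehicle and 0.698 ± 0.0882 CPM per kb in Visudyne samples. Timp1 stood at 0.457 CPM per kb. Both lay far below the most abundant members on this scale.

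Within the groups, several members varied far more than between them, and Visudyne 15 was the highest sample in 13 of the 41 tested members. The share of all genes that were highest in Visudyne 15 was not counted. Mmp12 measured 1.23, 4.06, 4.01, 3.20 and 4.66 CPM in vehicle 1, 4, 7, 10 and 13, and 3.04, 3.93, 4.25, 2.56 and 7.27 CPM in Visudyne 3, 6, 9, 12 and 15. Adamts10 measured 9.66, 14.8, 12.1, 9.94 and 15.6 CPM with vehicle and 12.01, 15.01, 12.4, 6.92 and 16.7 CPM with Visudyne, in the same order. Both were high in vehicle 13 and Visudyne 15 and low in vehicle 1 and Visudyne 12.

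A similar order was seen for Malat1, an abundant long noncoding RNA that stays in the nucleus, which was chosen for comparison after the values were seen. Malat1 measured 2017, 4517, 4407, 3212 and 5340 CPM in vehicle 1, 4, 7, 10 and 13, and 3143, 4484, 3933, 2127 and 6334 CPM in Visudyne 3, 6, 9, 12 and 15. Its group means were alike within their spread (3898 ± 1297 and 4004 ± 1575 CPM, SD, n = 5 each). Over the 10 samples Mmp12 and Malat1 had Pearson's r = 0.92 on log2 CPM with 0.1 added (permutation p = 1e-05, the smallest that 100000 resamples can give, two-sided, adjusted over 19092 genes 0.00083) and Spearman's rho = 0.92 (permutation p = 0.00056, adjusted 0.00727). Without vehicle 1 and Visudyne 12, the samples farthest from the median of Malat1, r was 0.92. For Adamts10 r was 0.91 (permutation p = 0.00011, adjusted 0.00174) and rho 0.95 (permutation p = 0.00012, adjusted 0.00392), with r = 0.88 without those 2 samples.

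In all, 10 of the 41 members followed Malat1 positively at an adjusted p under 0.05 (24.4%; Mmp12, Adamts10, Mmp23, Mmp21, Adamts17, Adamts16, Adamts20, Timp4, Adamts3 and Adamts7), a share near that of all genes, 20.5%. For 6 of them Spearman's rho passed as well. One member, Mmp15, followed it negatively (2.44%, against 18.4% of all genes). The relation of Adamts3 rests on vehicle 1 and Visudyne 12, since r fell from 0.76 to 0.07 without them. Adamtsl3 had r = -0.22 (permutation p = 0.533) and rho = -0.32 (permutation p = 0.367), Adamts2 r = -0.093 (permutation p = 0.793) and rho = 0.0061 (permutation p = 1), and Mmp2 r = 0.015 (permutation p = 0.967) and rho = -0.018 (permutation p = 0.973). No batch is given in the labels, and the 5 samples of a group were not correlated on their own. The part of nuclear RNA in these levels was not tested.

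**Figure D5:**
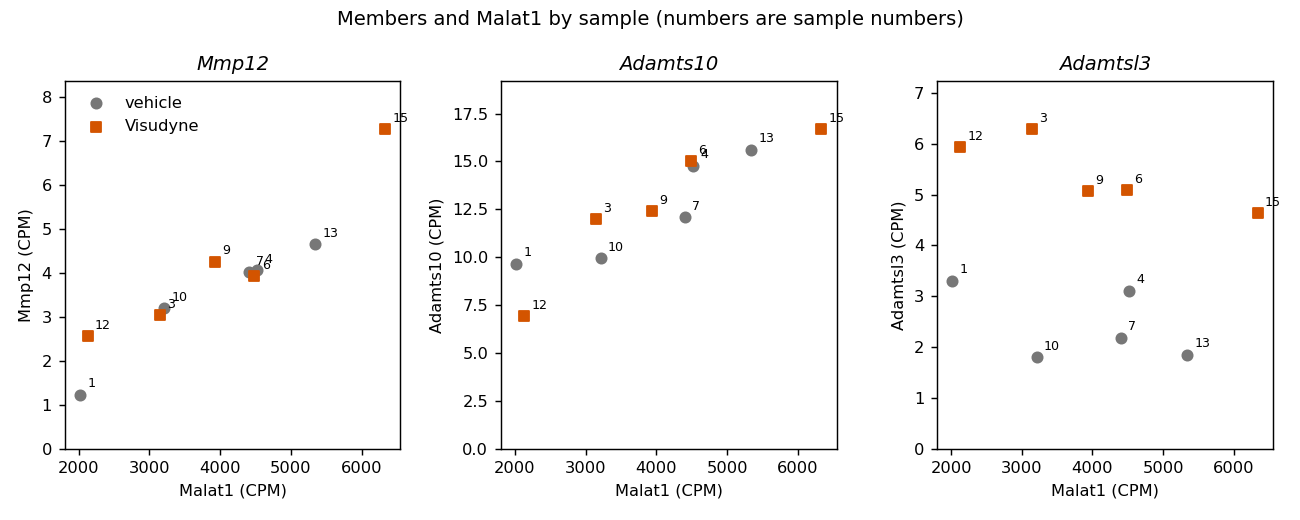
Level of Mmp12, Adamts10 and Adamtsl3 (CPM, y axis) against that of Malat1 (CPM, x axis) in each of the 5 vehicle (circles) and 5 Visudyne samples (squares), labelled by sample number. Mmp12 and Adamts10 increase with Malat1 across both groups (r = 0.92 and 0.91), while Adamtsl3 is higher in all 5 Visudyne samples than in any vehicle sample.

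Genes that act with these enzymes were described from gene lists, by counts and medians and with no test of the list. The values over all genes tested, to be read beside each list, were 51.1% positive and a median of 0.0022. Of all genes 0.021% were called higher and 0% lower by edgeR. At an edgeR unadjusted p under 0.05, 1.14% were higher and 0.56% lower. Of 16 structural substrates and microfibril partners (collagens, laminins, fibrillins, latent TGF-beta binding proteins, fibronectin and elastin) all 16 were positive with a median of 0.15, 1 passed (Col1a1) and 6 had an unadjusted p under 0.05; Col3a1 and Col1a1 had the smallest p. Of the other procollagen processing proteins 5 of 6 were tested, 2 were positive, the median was -0.06 and 0 passed. Their members of smallest p were the enhancer proteins Pcolce2 (-0.18, SE 0.08) and Pcolce (0.30, SE 0.20), which have opposite signs, and the C-propeptidase Bmp1 had -0.06 (SE 0.12).

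Of the convertases and plasminogen system genes that activate MMPs and ADAMTSs, 8 of 9 were tested, 5 were positive, the median was 0.03 and 0 passed. The convertases Pcsk7 (-0.82, SE 0.41) and Pcsk6 (0.14, SE 0.07) had the smallest p. Of other inhibitors and clearance receptors 10 of 12 were tested, 8 were positive, the median was 0.07 and 0 passed. The testican Spock1 measured 15.4 ± 1.22 CPM (vehicle) and 16.7 ± 1.45 CPM (Visudyne), with a log2 fold change of 0.12 (SE 0.07). Lrp1, the endocytic receptor that clears several of these proteases, had 0.06 (SE 0.06), and Reck, a membrane-anchored MMP inhibitor, 0.01 (SE 0.11).

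The membrane ADAM family, which is related to the ADAMTS enzymes and includes proteases that shed cell surface proteins, had 9 of 11 positive, a median of 0.03 and 0 that passed. Adam12 measured 5.98 ± 0.374 and 7.41 ± 1.13 CPM (0.31, SE 0.10) and Adam10, the main alpha-secretase, 47.2 ± 3.44 and 49.7 ± 2.76 CPM (0.07, SE 0.06). Enzymes that attach sugars to the thrombospondin repeats of ADAMTS and ADAMTS-like proteins had 1 of 4 positive, a median of -0.0082 and 0 that passed, with Dpy19l3 at 0.04 (SE 0.04) and B3glct at -0.05 (SE 0.07). Of the genes that induce or partner MMPs 10 of 12 were tested, 6 were positive, the median was 0.03 and 0 passed. The cytokine Tgfb1 (0.33, SE 0.20) and the transcription factor Fosb (0.14, SE 0.13) had the smallest p of these.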

How the data were processed

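Total RNA of hippocampus was extracted with a column kit and made into stranded total RNA libraries, per the labels' protocols. The authors deposited 1 table of estimated counts per Ensembl gene for 28871 genes and 10 samples; Salmon, FastQC and mm10 are named in the submitters' processing notes, and the sources used here give neither versions nor the annotation release. The deposited values are whole numbers, so rounding changed nothing. Symbols, positions and merged exon lengths came from GENCODE M21 (same assembly); 28564 identifiers matched, and the 307 others held 0.134% of the counts. Of 50 annotated genes that fit the symbol rule, 47 have a row. The members and gene lists, and the rule for the genes named, were chosen with earlier results of these data known. That rule names the 3 members of smallest p and the 2 most abundant per kb in each class (all 4 TIMPs), a list of further members, and the 2 genes of smallest p of each pathway list; other members are given briefly. Protein sequences are not analysed here. One gene that the rule names is not reported here.

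Counts of all 10 samples were fitted in R 4.3.3 with edgeR 4.0.16 and compared by its quasi-likelihood test, with filterByExpr, TMM factors, no covariate and Benjamini-Hochberg adjustment over the 19093 genes tested (threshold 0.05, two-sided). SEs were derived from the F statistics, and the biological coefficient of variation was 14.6%. The fit was tested on simulated data. Alternatives were factors by upper quartile or by relative log expression, no filter, 1 CPM in 5 samples, DESeq2 1.42.0, limma 3.58.1 voom with and without quality weights, the sample number as covariate, and leaving out each sample; omitting vehicle 1 and Visudyne 15 together was added after the data were seen. Permutation p-values of correlations used 100000 resamples. Counts per library limit the precision: at most 41 for Timp1 and 64 for Adamts13.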

Additional observations from a re-analysis of the deposited data

Results flagged for a closer look

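In 3 of 82 sets of 5 samples (41 members, each in vehicle and in Visudyne samples) 1 sample stood far from the others of its group by Dixon's criterion (a gap of more than 0.71 of the range). Chance alone gives about 1 in 20. All 3 concern Visudyne 15. Adamts17 measured 15.9 CPM there, and 11.6 CPM in the next Visudyne sample. Mmp16 measured 61.7 CPM there, and 57.4 CPM in the next. Mmp21 measured 0.784 CPM there, and 0.287 CPM in the next. Visudyne 15 also had the highest Malat1 level (6334 CPM); its part in these values was not tested.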

How the results depend on the processing

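The count of members called higher, 0 in the main analysis, was 1 with DESeq2, 1 with voom and sample quality weights and 1 with the sample number as covariate (0.0943%, 0.0681% and 0.0995% of all genes were called higher there, against 0.021% in the main analysis), and 0 to 1 with 1 sample left out (1 without vehicle 1, where 0.0207% of all genes were); the gene was Adamtsl3 each time. No member was called lower under any of the 19 alternatives. Members higher at an unadjusted p under 0.05 numbered 3 of 29 tested with the filter of 1 CPM, and 3 to 5 of 41 with 1 sample left out (3 without vehicle 13 or Visudyne 6). With vehicle 1 and Visudyne 15 both left out the count lower at that p went from 1 to 0. Shares of all genes at that p were counted only in the main edgeR fit (1.14% higher and 0.56% lower). Of 29 named members with a fold change, 15 kept their sign under all alternatives in which they were tested. Among them were Adamtsl3 (1.05 to 1.32), Adamts2, Adamts1, Timp1, Mmp2 and Adamts13. Timp1 and Adamts13 were not tested with the filter of 1 CPM, so they have 18 alternatives in place of 19. No paired analysis was possible because the groups share no sample number in the labels.

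The other 14 changed sign in at least 1 alternative; the cause was not tested. With vehicle 1 and Visudyne 15 left out the log2 fold changes were -0.21 for Mmp12, -0.17 for Adamts10, -0.15 for Adamts17, -0.059 for Adamts5, -0.046 for Adamts3, -0.027 for Timp4 and 0.10 for Adamts15. With voom they were -0.0016 for Adamts5 and -0.0011 for Adamts10. With quality weights they were -0.088 for Adamts5, -0.0080 for Adamts10, -0.025 for Adamts17 and 0.054 for Adamts15. With the sample number as covariate they were -0.021 for Adamts5, -0.0038 for Adamts10, -0.019 for Adamts17 and 0.044 for Adamts15. Mmp16 had 0.0020 with upper-quartile factors and 0.0076 with the filter of 1 CPM. With 1 sample left out the ranges were -0.10 to 0.18 for Adamts10, -0.073 to 0.038 for Adamts15, -0.064 to 0.17 for Adamts17, -0.024 to 0.078 for Adamts3, -0.032 to 0.13 for Adamts4, -0.075 to 0.049 for Adamts5, -0.0059 to 0.13 for Adamtsl4, -0.041 to 0.033 for Mmp16, -0.0089 to 0.038 for Mmp24, -0.070 to 0.10 for Mmp28, -0.093 to 0.13 for Mmp9, -0.0069 to 0.15 for Timp2 and -0.018 to 0.12 for Timp4.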

Other observations

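Adamts1 and Adamts5 lie side by side on the minus strand of chromosome 16 (85793827 to 85803113 and 85856173 to 85901828, mm10) and had unlike levels, 3.6996 and 0.137 CPM per kb of exon over the 10 samples. Adamts8 and Adamts15 lie side by side on opposite strands of chromosome 9 (30942562 to 30963838 and 30899155 to 30922452). Their CPM were nearly equal (4.62 and 4.46), and their levels per kb, 1.0004 and 0.430, differ through their merged exon lengths of 4613 and 10363 bases. These are values with no test.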
